A study of Mus musculus with 24 samples.

Results

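Immediate early genes are transcribed within minutes of a stimulus without new protein synthesis, and another group of stress genes, the heat shock chaperones, follows when proteins misfold. The 34 genes described here were taken as a list of symbols, and all 34 were found among the 24411 genes of each deposited table. They were ordered into 8 roles. These were 7 AP-1 transcription factors (Fos, Fosb, Fosl2, Jun, Junb, Jund and Atf3), 4 EGR zinc finger factors (Egr1 to Egr4), 3 NR4A nuclear receptors (Nr4a1 to Nr4a3), 3 effectors of neuronal activity (Arc, Npas4 and Homer1), 4 further factors (Klf2, Klf4, Klf6 and Myc), 3 MAP kinase phosphatases (Dusp1, Dusp5 and Dusp6), 6 genes of growth arrest and mRNA decay (Ier2, Ier3, Ier5, Btg2, Gadd45b and Zfp36) and 4 heat shock chaperones (Hspa1a, Hspa1b, Dnajb1 and Hspa8).

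In neurons many of the immediate early genes are switched on by calcium entry after synaptic activity. The signal runs through kinases of the MAPK and CaM kinase families and the factors CREB, SRF and MEF2. Many products of the immediate early genes are short lived, and several of them (Dusp1, Zfp36, Atf3) dampen the signal that induced them. In brain cells that are taken apart with enzymes at warm temperature, many of the same genes are known to be switched on during the procedure.

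Whole hippocampi came from aged (20 months) male C57BL/6 mice of 3 groups, with 5 mice given saline, 6 given a plasma preparation of young blood and 6 its platelet fraction. The plasma donors were 3 months old. In a separate experiment, microglia were isolated from the hippocampi of aged mice given saline (n = 3) or recombinant mouse platelet factor 4 (PF4, 5 µg per ml; n = 4). All mice received 8 injections of 100 µl into the tail vein over 24 days. The mice were perfused with ice-cold buffer under anaesthesia, and the microglia were released by enzymes and mechanical force, freed of myelin and pulled out with magnetic beads against CD11b, a surface protein that border macrophages, monocytes and neutrophils carry too. Counted reads were 6140510 to 10522699 in hippocampal libraries and 19855188 to 36342162 in microglia libraries. Neuronal markers were at a summed 0 to 17.1 RPM (reads per 1000000 counted reads) in all 7 microglia libraries, and 8 microglial markers at 31322 to 43836 RPM. Endothelial, choroid plexus and oligodendrocyte transcripts varied strongly between them, as given below. The labels give the microglia replicates only numbers, and the study describes them as 3 and 4 mice.

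The proximal promoters of 28 of the 34 genes were available in RefSeq (GRCm38.p6), each as 250 bases before and 50 after the start of transcription. No window was given for Egr1, Egr3, Arc, Myc, Ier2 and Hspa8. The 250 bases before the start of 5 genes that carry the results below are printed 5′ to 3′ on the strand of the gene. Capitals mark the core of the cAMP response element (CRE), the site of CREB, in Fos, Dusp1 and Npas4, the TATAAA box in Fos, and a pair of heat shock element units, the site of HSF1, in both Hspa1 copies. Fos (chr12:85473640-85473889, plus strand), Dusp1 (chr17:26508473-26508722, minus strand) and Npas4 (chr19:4989972-4990221, minus strand) are shown because Fos and Dusp1 were abundant in isolated microglia and Npas4 was not found there. Hspa1a (chr17:34972157-34972406, minus strand) and Hspa1b (chr17:34959239-34959488, minus strand) are shown because the copies are nearly the same.
Fos: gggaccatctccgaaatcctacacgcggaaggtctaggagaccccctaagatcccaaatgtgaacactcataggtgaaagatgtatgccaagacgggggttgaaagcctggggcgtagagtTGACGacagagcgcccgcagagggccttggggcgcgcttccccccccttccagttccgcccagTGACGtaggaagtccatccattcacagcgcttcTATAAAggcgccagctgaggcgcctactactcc
Dusp1: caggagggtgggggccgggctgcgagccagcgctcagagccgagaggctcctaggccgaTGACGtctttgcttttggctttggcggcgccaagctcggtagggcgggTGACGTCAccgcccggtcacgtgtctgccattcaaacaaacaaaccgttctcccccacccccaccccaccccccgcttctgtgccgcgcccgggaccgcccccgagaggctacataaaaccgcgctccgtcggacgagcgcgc
Npas4: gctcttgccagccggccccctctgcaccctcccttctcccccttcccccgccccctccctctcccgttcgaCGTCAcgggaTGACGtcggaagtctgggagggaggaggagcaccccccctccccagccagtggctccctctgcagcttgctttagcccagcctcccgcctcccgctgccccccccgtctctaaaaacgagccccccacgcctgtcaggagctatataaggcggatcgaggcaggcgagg
Hspa1a: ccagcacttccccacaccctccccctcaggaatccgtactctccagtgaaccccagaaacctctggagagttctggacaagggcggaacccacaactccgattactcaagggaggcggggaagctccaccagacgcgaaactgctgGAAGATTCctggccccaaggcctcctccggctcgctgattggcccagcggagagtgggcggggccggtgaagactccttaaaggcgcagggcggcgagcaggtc
Hspa1b: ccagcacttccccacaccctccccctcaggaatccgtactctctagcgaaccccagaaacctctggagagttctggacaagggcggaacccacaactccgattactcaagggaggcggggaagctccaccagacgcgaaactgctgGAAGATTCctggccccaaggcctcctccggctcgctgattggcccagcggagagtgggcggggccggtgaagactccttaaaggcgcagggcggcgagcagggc

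In Fos the CRE cores began 129 and 66 bases before the start and the TATAAA box 33 bases before it. Dusp1 had a full CRE, TGACGTCA, which reads the same on both strands and therefore holds the core on each, 143 bases before the start and a further core at 191 bases. Npas4 had a core on each strand, at 179 and 169 bases. Searched on both strands over the whole windows, TGACG was present for 17 of the 28 genes and for 23.0% of the 27025 genes with a window, and TGACGTCA for 2 of 28 (Btg2 and Dusp1) and 2.03%. The heat shock pair GAANNTTC was present for 5 of 28 (Fosl2, Homer1, Hspa1a, Hspa1b and Jun) against 9.04% of all genes, the CArG box of SRF for 3 (Dusp5, Egr2 and Zfp36) against 1.81%, TATAAA for 4 (Fos, Gadd45b, Junb and Nr4a2) against 15.7%, and the AP-1 site TGANTCA for 0 against 8.97%. A match says only that the letters are in the window. The upstream sequences of Hspa1a and Hspa1b had the same base at 247 of 250 positions, and 1350 of the 2868 stretches of 100 bases (47.1%) in Hspa1a transcripts also occurred in Hspa1b. Reads of either copy can therefore be counted for the other, and the split between them is uncertain. No other pair of the 34 genes shared a stretch of this length.

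The first question was where these transcripts stood in whole tissue and in the isolated cells. To put both experiments on a common scale, the reads recovered from the deposited values were divided by the counted reads of each library and given as RPM, the reads per 1000000 counted reads. In the hippocampus of saline-treated mice the 34 genes took 0.517% to 0.635% of all counted reads, and the chaperone Hspa8, which every cell makes constitutively, took most of that, at 0.386% to 0.479%. Without Hspa8 the share was 0.151% ± 0.0181 (SD, n = 5). In saline microglia it was 3.58% ± 0.557 (SD, n = 3), and no library of either group came near the other.

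**Figure D1:**
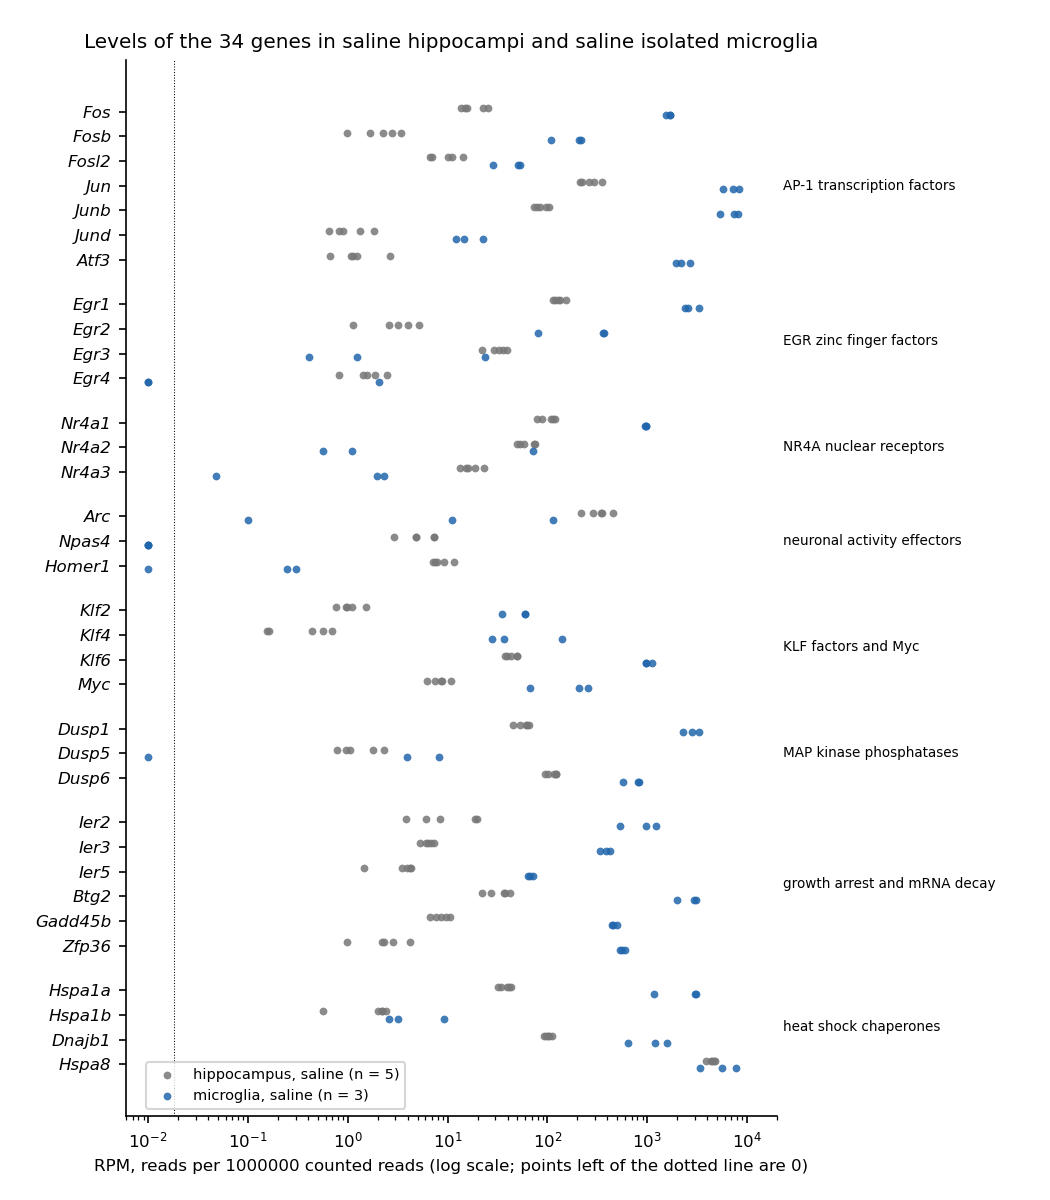
Each point is the level of a gene in a library, in RPM on a log scale, for 5 saline hippocampi (grey) and 3 saline microglia libraries (blue), with the genes grouped by role. The blue points of 25 genes lie to the right of every grey point, whereas those of Nr4a3, Arc, Npas4 and Homer1 lie to the left.

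Of the 34 genes, 25 were higher in every saline microglia library than in every saline hippocampus, where 12.1% of the 18382 genes with a read were, and 4 were lower in every microglia library, against 41.5% of all genes. The median log2 ratio of microglia to hippocampus was 4.41 over the 33 genes with a read in both and -0.57 over all genes. Tissue, isolation procedure and experiment changed together between these groups and cannot be told apart, and no test was made. Within whole tissue, more cells of a type and more RNA per cell cannot be told apart either.

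The AP-1 factors, which pair as dimers on their DNA sites, were higher in microglia for 7 of 7, by 4.48-fold for Fosl2 to 1686-fold for Atf3. Fos (chromosome 12, 85473890 to 85477273, plus strand) was at 25.7, 22.9, 15.5, 13.7 and 14.8 RPM in the saline hippocampi and at 1679, 1713 and 1551 in the saline microglia. The groups were far apart, and the ratio of the means was 88.9. Atf3, a stress-induced repressor, had 6 to 23 reads in a hippocampal library and 38665 to 98631 in a microglia library. Junb was at 87.3 ± 13.0 RPM in hippocampus and 6990 ± 1435 in microglia, and Jun, the factor phosphorylated by JNK, at 269 ± 57.9 and 7066 ± 1313 (SD, n = 5 and 3).

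The genes of growth arrest and mRNA decay were higher in microglia for 6 of 6, by 19.6-fold for Ier5 to 225-fold for Zfp36. Zfp36, which encodes tristetraprolin and speeds the decay of cytokine mRNAs, was at 0.977 to 4.16 RPM in hippocampi and at 537 to 595 in microglia. Among the MAP kinase phosphatases, Dusp1, which inactivates p38 and JNK, was at 57.5 ± 8.00 and 2805 ± 492 RPM and Dusp6, which acts on ERK, at 112 ± 12.3 and 741 ± 146 (SD, n = 5 and 3). Dusp5 overlapped between the groups. Klf2, Klf4, Klf6 and Myc were each higher in every microglia library. Klf2 and Klf4 are also factors of endothelial cells, and Klf4 was highest in the saline microglia library (replicate 2) that held most endothelial Cldn5. Klf4 there was at 139 RPM, against 27.7 in the lowest saline microglia library.

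The EGR factors and the NR4A receptors divided. Egr1, the most abundant EGR factor in both sources, was at 130 ± 16.1 RPM in hippocampi and 2761 ± 499 in microglia, and Egr2 at 3.25 ± 1.53 and 269 ± 164 (SD, n = 5 and 3). Nr4a1 was at 102 ± 17.3 and 967 ± 19.6. By contrast, Egr3 and Nr4a2 were low in saline microglia replicates 3 and 4, at 1.24 and 0.413 RPM for Egr3 and at 0.570 and 1.10 for Nr4a2, and near the hippocampal level in replicate 2, at 24.0 and 72.6. Nr4a3 was at 13.2 to 23.0 RPM in hippocampi and 0.0475 to 2.32 in microglia.

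The effectors of neuronal activity were the only role in which every gene was lower in microglia. Arc, which forms capsids at synapses and drives the removal of AMPA receptors, was at 218 to 453 RPM in hippocampi. In microglia it was at 0.101, 11.1 and 113, a range of 2 to 4116 reads. Npas4, a factor induced by calcium in neurons, had 229 reads over the 5 hippocampi and 0 reads in all 7 microglia libraries, so that it was at least 140-fold higher in hippocampus when 3 reads over the 3 saline microglia libraries were taken as the floor. Homer1, a scaffold of the postsynaptic density, had 351 reads over the 5 hippocampi and 15 over the 3 saline microglia libraries, and the counts per gene do not separate its short form, which activity induces, from the long ones.

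Of the heat shock chaperones, Hspa1a was at 32.2 to 43.2 RPM in hippocampi and at 1171, 3092 and 2999 in microglia. Its near copy Hspa1b was counted at only 0.570 to 2.44 and 2.61 to 9.30. Dnajb1, the HSP40 partner of these chaperones, was at 101 ± 7.34 and 1138 ± 463 RPM (SD, n = 5 and 3). Hspa8 overlapped between the groups, at 3861 to 4793 in hippocampi and 3365 to 7687 in microglia.

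Per kilobase of exon, which allows genes to be compared, Hspa8 led the list in hippocampus at 1854 RPKM (RPM per kilobase), followed by Arc at 108 and Jun at 84.4. In microglia Junb led at 3864, and 10 of the 34 genes were among the 100 most abundant of 23376 genes with a known exon length, where hippocampus had 1. The 8 microglial marker genes had ratios of microglia to hippocampus from 30.9 (Itgam) to 68.3 (Tmem119). Of the 34 genes, 9 had a larger ratio than Tmem119 (Fos, Fosb, Junb, Atf3, Egr2, Klf4, Ier2, Btg2 and Zfp36), 5 lay within the range of the markers (Klf2, Dusp1, Ier3, Gadd45b and Hspa1a) and 11 that were higher in microglia lay under it.

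**Figure D2:**
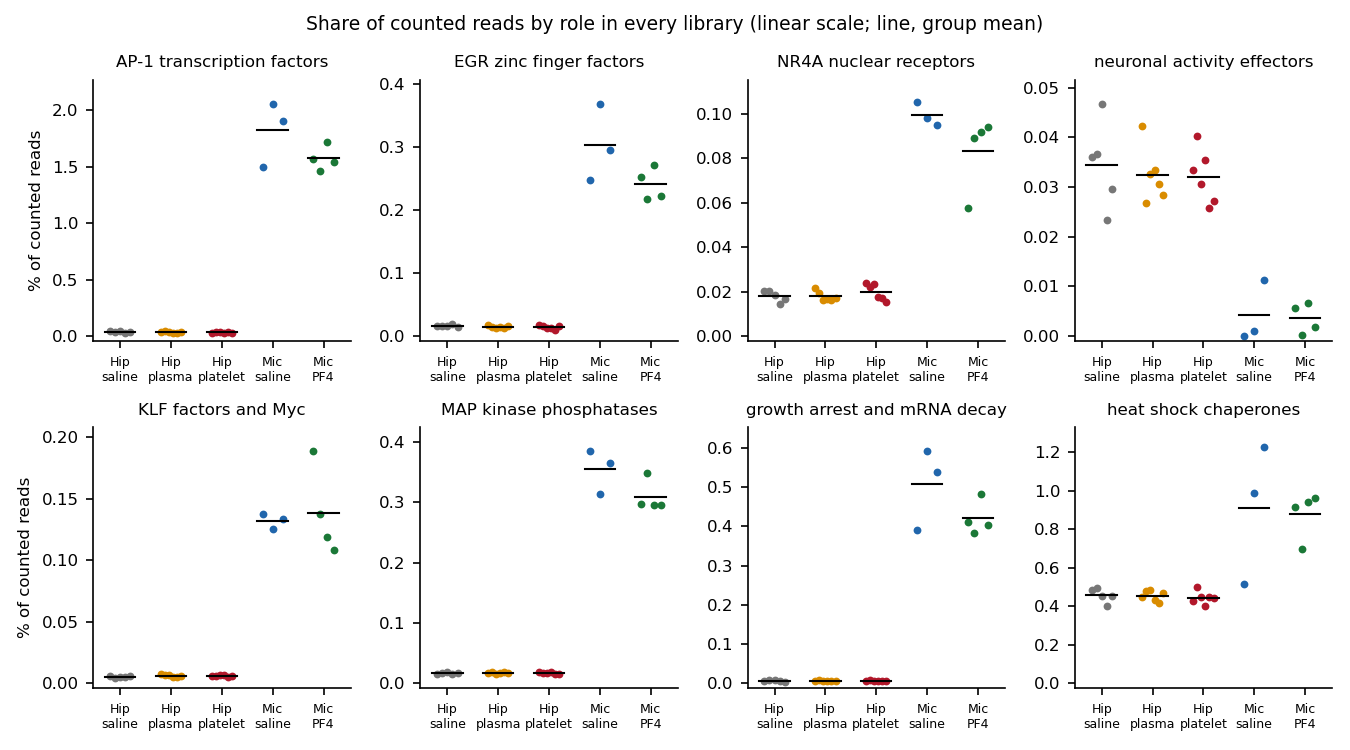
Each panel gives the percentage of counted reads that a role took in every library (points) with the group mean (line), on a linear scale from 0 that differs between panels, for the 3 hippocampal (Hip) and 2 microglia (Mic) groups. Microglia libraries lie above all hippocampal libraries for 7 roles, and below them for the neuronal activity effectors, which took 0.0234% to 0.0467% in hippocampi and at most 0.0114% in microglia.

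A further 4 related lists, chosen with earlier results of these data known, were set beside the 34 genes. Over all genes, 12.1% were higher in every saline microglia library and 41.5% lower. The first list below holds genes chosen for their induction in isolated microglia, so its count is no separate support. All 20 genes of a list of others induced in isolated microglia were higher in every saline microglia library, among them the NF-kB inhibitor Nfkbia (53.6 ± 6.62 against 5227 ± 188 RPM) and the cytokine Il1b (0.171 ± 0.161 against 232 ± 48.6; SD, n = 5 and 3). Of 16 late response genes of neurons, 3 were higher (Per1, Gadd45g and Rgs2) and 11 lower, and Bdnf and Vgf had no read in saline microglia. Of 19 further heat shock regulators and chaperones, 4 were higher (Hspb1, Hspa5, Dnajb4 and Bag3) and 10 lower, Hsp90aa1 among the latter. Of 20 upstream kinases and nuclear factors, 7 were higher and 6 lower, with Camk4, a kinase of neuronal nuclei, at 87.9 ± 16.2 and 0.0931 ± 0.138 RPM (SD, n = 5 and 3).

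The next question was whether the young blood plasma preparation moved these genes in the aged hippocampus. Dusp1 had higher values and Egr3 lower ones, and the other genes tested did not pass the threshold. Each treatment was compared with saline in its own table of normalized counts by limma on log2(normalized count + 1), at an unadjusted P of 0.05, a scale that shrinks the changes of low genes. Of the 31 genes that passed the filter on low values, 2 were called, where 3.35% of 13594 genes were, and 0 passed after Benjamini-Hochberg adjustment, as among all genes. The groups were apart for 0 of the 31, against 0.103% of genes with every treated library above saline and 0.0883% with every treated library below. Jund, Klf2 and Klf4 did not pass the filter. The difference was above 0 for 12 of 31, with a median of -0.06 against -0.01 over all genes.

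Dusp1 (chromosome 17, 26505590 to 26562128, minus strand) had normalized counts of 461, 441, 495, 329 and 395 in saline mice and a lowest, median and highest of 479, 508 and 633 in treated mice. All but 2 treated mice exceeded the highest saline mouse. The log2 difference was 0.32 (SE 0.11, P = 0.0141, adjusted p = 1.00 in limma), and the two-sided exact permutation test gave p = 0.0130. It was past the threshold under every alternative setting tried, and with scaling to counted reads all 6 treated mice were above the 5 saline mice.

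Egr3 (chromosome 14, 70077203 to 70082614, plus strand), an EGR factor induced by Egr1 and by neuronal activity, had 216, 260, 248, 287 and 166 normalized counts in saline mice and 126 to 224 (median 180) in treated mice. Only 2 treated mice lay below every saline mouse. The log2 difference was -0.39 (SE 0.17, P = 0.0386, adjusted p = 1.00), with an exact permutation p of 0.0606. The call was lost when saline mouse 7146, 7152 or 7155 or treated mouse 7150, 7156 or 7159 was left out, in the fit of all 3 groups, and without the 5 hippocampal libraries that stood apart from the rest. Beside it, Prox1 and Neurod1 of 5 dentate granule cell markers were lower, and the summed markers were at 252 to 680 RPM in saline and 205 to 468 in treated mice. Their part in the Egr3 value was not tested.

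The genes next in order of P were Klf6 (log2 difference 0.23, P = 0.0712, exact permutation p = 0.0866), Gadd45b (0.33, P = 0.123 and 0.139) and Homer1 (-0.30, P = 0.130 and 0.134). Klf4, named after its values were seen, was too low for the filter, with 1 to 6 reads in saline mice and 6 to 12 in treated mice, and in normalized counts each treated mouse exceeded all 5 saline mice. Without the filter it passed the unadjusted threshold, with a log2 difference of 1.35 (SE 0.35, adjusted p = 1.00 in limma), and 3 of the 34 genes were called, against 3.60% of all genes. Endothelial markers summed to 312 to 400 RPM in saline and 341 to 492 in treated mice, with 0 of 5 called, and their part in Klf4 was not tested. Fos was at 136 ± 39.0 and 152 ± 34.7 normalized counts, Arc at 2450 ± 687 and 2275 ± 372, Npas4 at 40.1 ± 14.3 and 36.8 ± 8.47, and Hspa8 at 32726 ± 2856 and 32351 ± 2215 (SD, n = 5 saline and 6 treated). These 4 genes, whose roles run from the AP-1 dimer to the constitutive chaperone, each overlapped between the groups.

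After the young platelet fraction, Klf6 alone was called. Klf6 (chromosome 13, 5861482 to 5870394, plus strand), a zinc finger factor of injury and vessel repair, had 367, 286, 291, 316 and 369 normalized counts in saline mice and 340 to 417 (median 384) in treated mice, of which 4 were above every saline mouse. The log2 difference was 0.24 (SE 0.10, P = 0.0326, adjusted p = 0.998 in limma), and the exact permutation test gave p = 0.0390. The call was lost without saline mouse 7146, 7152 or 7155, without treated mouse 7151 or 7154, and without the 5 libraries that stood apart, where the log2 difference was 0.13. Of the 30 genes tested 1 was thus called, against 3.87% of 13603 genes, and 0 after adjustment. The groups were apart for 0 of the 30, against 0.140% of genes above and 0.118% below. Jund, Atf3, Klf2 and Klf4 did not pass the filter. Klf4 had 4 to 10 reads after the platelet fraction, above every saline mouse in 5 of 6 treated mice, and without the filter it too passed the unadjusted threshold (log2 difference 1.13, SE 0.36 in limma) but not the adjusted one, as 1 of 2 genes called of 34, against 4.17% of all genes. Of the 5 endothelial markers 0 were called after the platelet fraction. The difference was above 0 for 14 of 30, with a median of -0.01 against 0.00 over all genes.

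Npas4 had 53.9, 35.4, 55.9, 34.6 and 21.9 normalized counts in saline mice and 13.2 to 44.2 (median 19.3) after the platelet fraction, with 4 treated mice below every saline mouse. Its log2 difference of -0.70 (SE 0.35) had P = 0.0664 in limma and p = 0.0909 in the exact permutation test. Dnajb1 was next to it, at 750 ± 42.8 and 674 ± 52.7 normalized counts (SD, n = 5 and 6; log2 difference -0.16, P = 0.0642 in limma and 0.0433 in the exact permutation test), then Nr4a3 (0.26, P = 0.0907 and 0.0996) and Jun (-0.25, P = 0.111 and 0.177). Fos was at 137 ± 39.2 and 138 ± 31.5 normalized counts and Arc at 2463 ± 693 and 2300 ± 395. Both hippocampal comparisons used the same 5 saline mice, so the values of Klf6, higher in each, are not independent of each other.

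**Figure D3:**
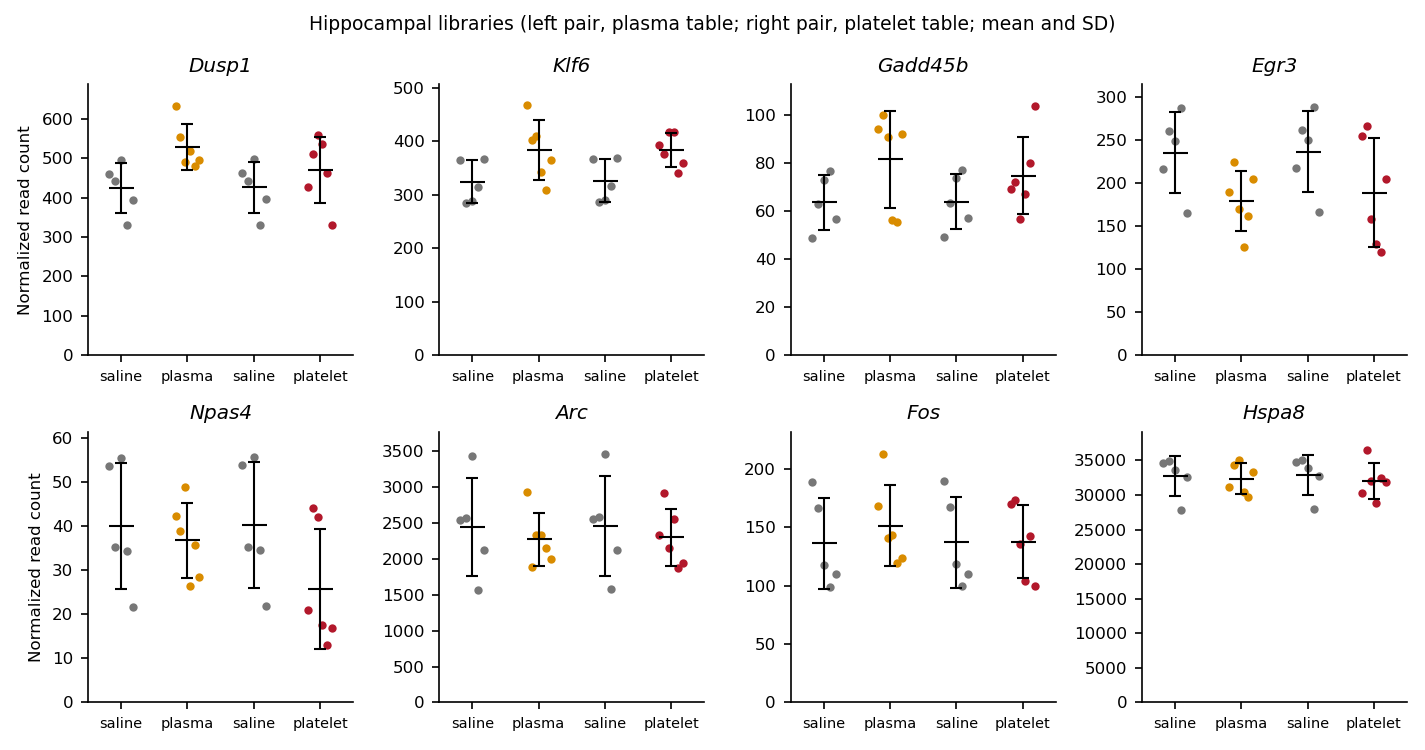
Each point is the normalized read count of a gene in a hippocampal library, with the group mean and SD in black. The left pair of groups (5 saline, 6 young plasma) and the right pair (5 saline, 6 young platelet fraction) come from separately normalized tables with the same saline mice, and in every panel the treated points overlap the saline points.

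Of the 67 genes tested from the related lists, 3 (4.48%) passed the threshold after plasma, close to the 3.35% of all genes. These were Crtc1, a coactivator of CREB (log2 difference -0.21), the late response gene Gadd45g (0.28) and the small heat shock protein Cryab (0.39). After the platelet fraction 3 of 68 passed (4.41%, against 3.87% of all genes), and these were Crtc1 (-0.24), Mapk3, which encodes ERK1 (-0.33), and Cryab (0.55). All 5 oligodendrocyte markers passed as higher after each treatment, with medians of 0.51 and 0.72, and Cryab is also a transcript of oligodendrocytes. Whether these moved with any of the 34 genes through cell composition was not tested.

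The genes differed in how widely they varied between mice. In saline hippocampi the coefficient of variation of the 31 genes ran from 5.79% to 65.3% (median 22.5%). The SD on the log2 scale was above the median of genes of like level for 22 of 31. The same count was 19 of 31 after plasma and 17 of 30 after the platelet fraction. It was 16 of 31 in saline microglia and 15 of 31 in PF4 microglia. Ier2 was the most uneven, with 28.5, 143, 143, 61.2 and 44.7 normalized counts in the saline mice, and Arc, at 1573 to 3444, was above 94.2% of genes of like level. Jun, Junb, Atf3, Arc and Btg2 were each highest, among all 17 hippocampi, in saline mouse 7152, and Fosb, Egr1, Egr3, Homer1 and Zfp36 in saline mouse 7155. Atf3, Egr1, Egr3, Npas4 and Homer1 were each lowest in platelet fraction mouse 7157, and Fos, Nr4a2, Dusp1 and Hspa1a in platelet fraction mouse 7595. No share of all genes is given beside these.

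The last comparison asked whether PF4 changed these genes in the isolated microglia. No gene passed the threshold used for microglia, an unadjusted P of 0.01, but Fos, Nr4a1 and Gadd45b were lower in each PF4 library than in each saline library. Of the 31 genes that passed the filter, 0 were called by limma, against 0.389% of 11320 genes, and 2 at an unadjusted P of 0.05 (Dusp6 and Fos), against 3.45%. DESeq2 on the recovered reads called 1, Fos, and edgeR 0. After adjustment limma called 0, and DESeq2 0 of the 34 genes. In simulated counts of this design, limma called 19 of 96 genes changed 3-fold. Those genes were drawn at random from genes of all levels, so this rate does not carry over to the 31 genes. The SE of the 31 ran from 0.14 (Fos) to 2.59 (Arc), and 0 calls do not show that nothing changed. Egr4, Npas4 and Homer1 did not pass the filter. The 3 genes with separated groups, lower after PF4, compare with 2.23% of all genes, and 0 were higher in every PF4 library, against 2.39%.

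Fos had normalized counts of 41373, 44483 and 40234 in the saline libraries and 30607, 34171, 34971 and 31925 in the PF4 libraries. The groups did not overlap, and the log2 difference was -0.35 (SE 0.14, P = 0.0285, adjusted p = 0.982 in limma, exact permutation p = 0.0571). This is the smallest permutation p that 4 libraries against 3 allow. Nr4a1, the receptor also called Nur77, had 24053, 25479 and 24515 against 13500, 20559, 22611 and 23568 (log2 difference -0.33, SE 0.21, P = 0.141, exact permutation p = 0.0571), and Gadd45b, a growth arrest factor of the p38 pathway, 11285, 13012 and 11486 against 10470, 8943, 10544 and 8988 (-0.29, SE 0.16, P = 0.103, with the same permutation p). Both genes had a PF4 library close to the lowest saline library.

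Dusp6 had 14128, 21757 and 21058 normalized counts after saline and 8359, 12268, 14887 and 13116 after PF4 (log2 difference -0.65, SE 0.24, P = 0.0228, exact permutation p = 0.114). The lowest saline library, replicate 2, overlapped with the PF4 libraries. The same was seen in Egr1, at 58387, 86294 and 67288 against 50764 to 61381 (-0.35, exact permutation p = 0.114), in Junb, at 132391, 210524 and 194425 against 130221 to 167908 (-0.26, p = 0.229), and in Hspa1a, at 28870, 80300 and 77824 against 24320 to 65204 (-0.45, p = 0.400). Saline replicate 2 was the lowest of the 3 saline libraries in 18 of the 31 genes, against 40.9% of all genes tested. Its median deviation from the saline means over the 31 genes was -0.23 on the log2 scale, where replicates 3 and 4 were at 0.13 and 0.07 and the 4 PF4 libraries at -0.26 to -0.07.

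The median log2 difference of the 31 genes was -0.17, against 0.03 over all genes, with values below 0 for 19 of 31. By role, the difference was below 0 for 6 of 6 genes of growth arrest and mRNA decay, 3 of 3 MAP kinase phosphatases, 4 of 7 AP-1 factors and 2 of 3 EGR factors. It was above 0 for 3 of 4 heat shock chaperones, 2 of 3 NR4A receptors (median 2.12), 2 of 4 genes of the group of Klf factors and Myc, and for Arc. Of other cells that the beads also take, all 6 neutrophil markers had a difference below 0 (median -1.91), with sums of 153 to 353 RPM in saline and 24.9 to 844 in PF4 libraries, and so had 2 of 3 monocyte markers, at 6.32 to 18.0 and 0.257 to 10.8 RPM. No neutrophil marker was at 0 in any library, and up to 2 monocyte markers were. By contrast, 4 of 5 border macrophage markers had a difference above 0 (median 0.09). Their sums were 51.1 to 295 RPM in saline and 144 to 391 in PF4 libraries. The 8 microglial markers were all below 0 (median -0.09), at 31322 to 41523 RPM in saline and 31583 to 43836 in PF4 libraries. Of the 17 genes tested from the microglial, neutrophil and monocyte lists, 0 passed the threshold in limma or edgeR. Nor did any of the 15 for which DESeq2 gave a p. At an unadjusted P of 0.05 in limma there was 1, the monocyte gene Plac8. The part of these cell types in the differences of the 31 genes was not tested.

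The median log2 difference of the 31 genes was -0.33 without saline replicate 2 and -0.08 without saline replicate 3, and the number of genes lower in every PF4 library was 15 without saline replicate 2, against 6.22% of all genes, and 6 without PF4 replicate 3, against 4.81%. Without saline replicate 2, Egr3, Nr4a2 and Klf4 were higher in every PF4 library, against 5.88%. Saline replicate 2, PF4 replicate 2 and PF4 replicate 4 also held choroid plexus RNA, with Ttr at 197501, 501960 and 345809 normalized counts against 641 to 884 in the other 4 libraries. Without these 3, which leaves 2 libraries a group, 16 of 30 genes were lower in both PF4 libraries than in both saline libraries, against 16.8% of all genes, 4 (Egr3, Nr4a2, Klf4 and Hspa1b) were higher, against 16.3%, and Hspa1a alone was called (log2 difference -0.88, adjusted p = 0.872 in limma). PF4 replicate 4 also held the most oligodendrocyte RNA, with Mbp at 168405 normalized counts against 51.1 to 26034 in the other libraries. Summed oligodendrocyte markers were at 30.2 to 1084 RPM in saline and 21.1 to 7298 in PF4 libraries. The part of the choroid plexus and oligodendrocyte RNA in these values was not tested.

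Some genes varied widely between microglia libraries of both groups. Arc had 2.48, 288 and 2939 normalized counts after saline and 1374, 2.89, 1701 and 477 after PF4. Nr4a2, a receptor of dopamine neurons and macrophages, had 1790, 14.8 and 28.6 against 330, 975, 163 and 588, and was called as higher (log2 difference 4.28, adjusted p = 0.955 in limma) only when saline replicate 2 was left out. Klf4 had 3435, 718 and 952 against 4310, 2366, 1199 and 1580, and its 3 highest libraries were also the 3 highest for the endothelial marker Cldn5 (31893 in saline replicate 2, 27961 in PF4 replicate 1 and 19989 in PF4 replicate 2, against 3788 to 9858 in the others). The part of endothelial RNA in Klf4 was not tested.

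**Figure D4:**
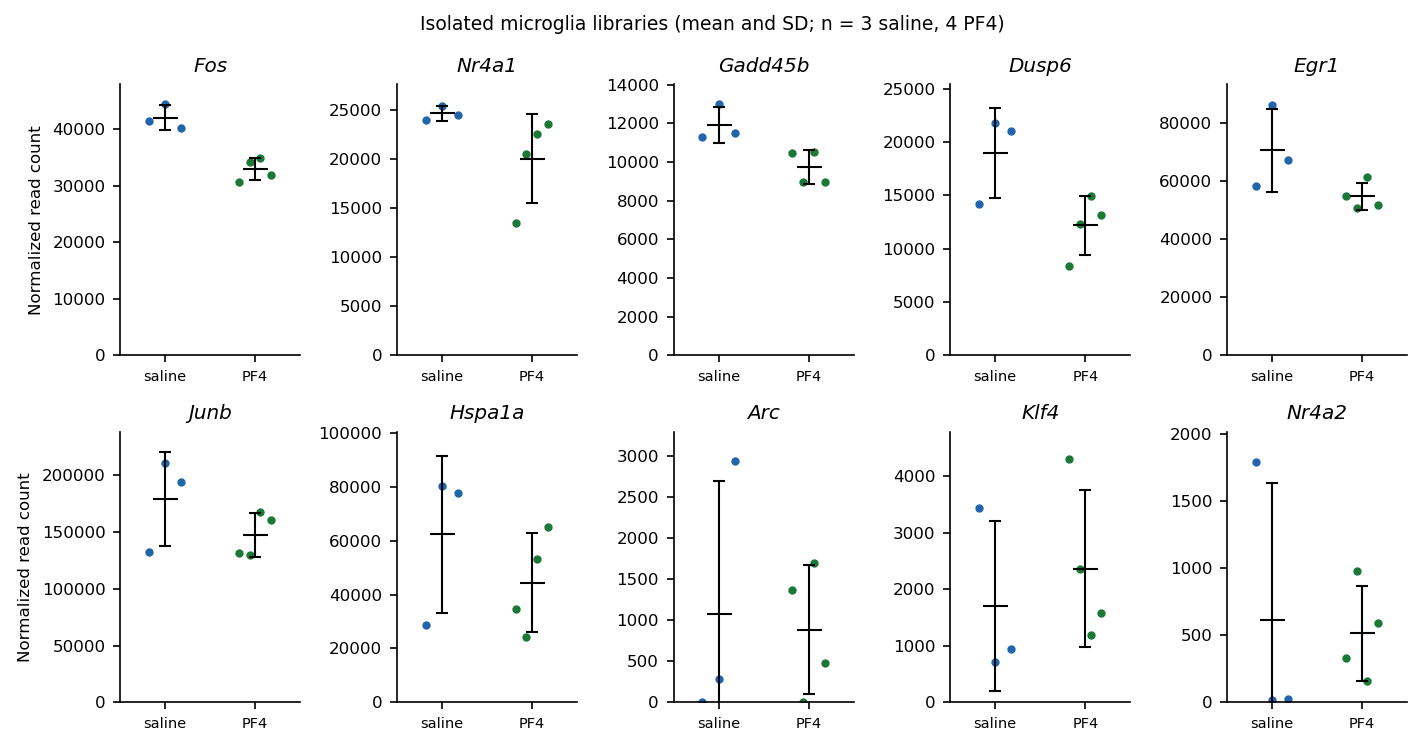
Each point is the normalized read count of a gene in a microglia library, with the mean and SD in black, for 3 saline (blue) and 4 PF4 (green) libraries. The groups are apart in Fos, Nr4a1 and Gadd45b, and in the other panels at least 1 saline point, the lowest in Dusp6, Egr1, Junb and Hspa1a, lies at or below the highest PF4 point.

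Of the 67 genes tested from the 4 related lists, 0 passed the threshold in limma or edgeR after PF4 and 1 in DESeq2, and at an unadjusted P of 0.05 there were 3 in limma (Cryab, Nfkbia and Socs3). The 20 other genes induced in isolated microglia had a median log2 difference of -0.14, with 15 of 20 below 0.

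**Figure D5:**
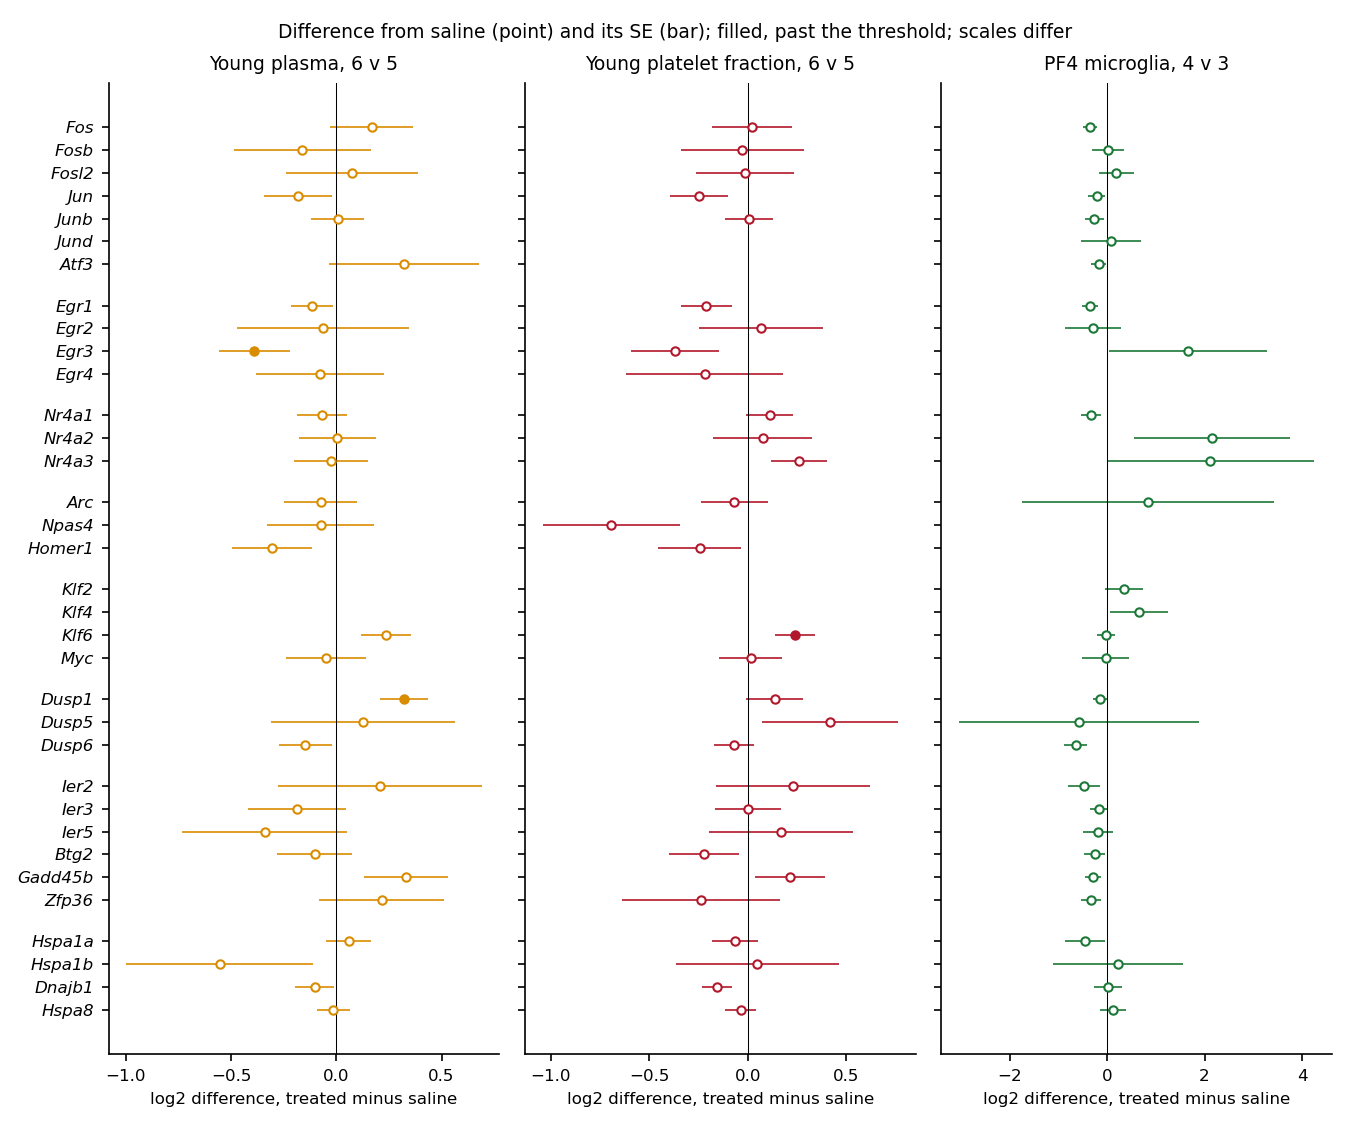
Points give the log2 difference from saline of each tested gene and bars its SE in limma, for the young plasma preparation (31 genes), the young platelet fraction (30) and PF4 in microglia (31), on horizontal scales that differ. Filled points, Dusp1 and Egr3 for plasma and Klf6 for the platelet fraction, passed the threshold. The widest bars in microglia are those of Arc and Dusp5, whose values varied widely between libraries.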

How the data were processed

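The study measured poly(A) RNA of 17 whole hippocampi and 7 preparations of isolated hippocampal microglia, grouped here by the deposited labels. The authors used STAR (build mm10), RSEM and DESeq2 to align, count and scale the reads, and the deposited signal of each library is this normalized count. The labels name a strand-specific poly(A) kit and the study's methods a modified Smart-Seq2 protocol, and neither settles which was used. The tables also hold fold changes and p-values of the authors' own comparisons, which were not used. Of the values, 100% were whole multiples of a read within 0.01 of a read, so reads were recovered. The 3 tables were normalized separately.

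Each treatment was compared with saline in its own table with limma 3.58.1 (R 4.3.3, variance trend) on log2(normalized count + 1), over genes that reached 10 in at least 5 libraries (hippocampus) or 3 (microglia), with Benjamini-Hochberg adjustment over all genes tested. The call threshold was an unadjusted P of 0.05 in hippocampus and of 0.01 in microglia. For single genes the exact permutation test, two-sided, was run on the log2 values (SciPy 1.17.1), whose smallest p is 0.00433 for 6 mice against 5 and 0.0571 for 4 libraries against 3. Levels across experiments are RPM, called apart where no library of either group overlapped, and exon lengths came from GENCODE M21 (GRCm38, the assembly of mm10), matched for 23376 genes. Counting error is covered by no interval here, and PCR copies carry no molecular identifiers. Other settings tried were a pseudocount of 0.5 or 5, a filter at 50 or none, TMM or total scaling, count models of the recovered reads (edgeR 4.0.16, DESeq2 1.42.0), other groupings and leaving out each library. Leaving out the 3 microglia libraries high in choroid plexus transcripts was added after seeing the data. The 5 hippocampal libraries that stood apart were set as a fixed list, with no rule applied in these fits. The fits were tested on simulated data. The 34 genes, the related lists and the marker lists were chosen with earlier results of these data known. Given in full were 14 representatives of the roles and the 5 genes with the smallest P in each comparison, with any others past the threshold, and other genes are named as examples. Klf4 was named after its values were seen.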

Additional observations from a re-analysis of the deposited data

Results flagged for a closer look

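In groups of 4 to 6 libraries, a library was singled out where its gap to the nearest other library was a large part of the range of the group (Dixon's 95% limit). This was met by 5 of 124 pairs of gene and group whose mean normalized count reached 10, where chance gives about 1 in 20. In saline hippocampi, Atf3 was at 20.3 normalized counts in mouse 7152 and at most 9.00 in the others, Ier5 at 10.6 in mouse 7143 and at least 26.4 in the others, and Hspa1b at 4.15 in mouse 7146 and at least 14.5 in the others. After the young platelet fraction, Fosb was at 24.1 in mouse 7157 and at most 14.4 in the others. In PF4 microglia, Homer1 was at 55.9 in replicate 2 and at most 2.45 in the others. None of these genes was called in the main fit of the comparison concerned. Without saline mouse 7146, Hspa1b was called as lower after plasma (log2 difference -0.90, unadjusted P = 0.0405 in limma), but not after adjustment.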

How the results depend on the processing

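The number of the genes called was 2 for young plasma, 3 with no filter (Klf4 added), and 1 without the 5 hippocampal libraries that stood apart (saline mice 7146 and 7152, plasma mice 7147 and 7150 and platelet mouse 7148). With all 3 hippocampal groups in the fit, Klf6 was called in place of Egr3. Leaving out each library in turn gave 1 to 3, with Dusp1 called each time. For the young platelet fraction it was 1, and 2 with no filter (Klf4 added) or with all 3 hippocampal groups in the fit (Npas4 added). It was 0 to 4 with each library left out. Without the 5 libraries that stood apart, Ier2 (log2 difference 0.77) was called in place of Klf6. For PF4 it was 0, and 1 with DESeq2 or without the 3 libraries high in choroid plexus transcripts, and 0 to 2 with each library left out. The share of all genes called is given above only for the main and unfiltered fits. With each library left out, 297 of 13520 to 617 of 13537 of all genes were called for young plasma. The range was 344 of 13519 to 870 of 13528 for the platelet fraction and 22 of 10932 to 123 of 10785 for PF4. The 4 called for the platelet fraction compare with 566 of 13540 genes without saline mouse 7596 and 792 of 13527 without platelet mouse 7148. The 2 called for PF4 compare with 49 of 10956 genes without saline replicate 2. DESeq2 called 179 of 11095 genes for PF4, and the fit without the 3 libraries 9 of 9885. The median log2 difference after PF4 ranged from -0.333 to -0.0762 when each library was left out. The number of genes lower in every PF4 library ranged from 3 to 15 in the same way, where 4.00% to 6.72% of all genes were lower, and was 16 without the 3 libraries. The number higher in every PF4 library was 0, but 3 without saline replicate 2, 1 without PF4 replicate 1 and 4 without the 3 libraries. Where a setting changed a count, the cause was not tested. Between saline microglia and hippocampi, 25 to 27 genes were higher and 4 to 6 lower when each library was left out, and 24 and 4 over all 17 and 7 libraries. In microglia, same-numbered saline and PF4 libraries correlated in their deviations at 0.14, 0.06 and 0.03, so the numbers were not taken as pairs, and the fit with the replicate block, over replicates 2 to 4, called 0 genes with a median of -0.15. Replicates 2 and 3 of saline each correlated best with the PF4 library of the same number, and replicate 4 of saline with PF4 replicate 3. No named gene changed direction while called. Genes under 10 normalized counts, such as Klf2 and Klf4 in hippocampus, are limited by depth.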

Other observations

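Among the microglia libraries of each group, the 31 tested genes did not divide evenly by library. PF4 replicate 3 was the highest of the 4 PF4 libraries in 17 of the 31, where it was the highest in 20.7% of all genes tested, and PF4 replicate 2 was the lowest in 15 of 31, against 25.6%. Saline replicate 3 was the highest of the 3 saline libraries in 14 of 31, against 30.8%.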
